A study of Mus musculus with 8 samples.

Results

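Bilateral renal ischemia with 1 week of reperfusion was set against its sham operation by DNA methylation in mouse kidney. Reduced representation bisulfite sequencing (RRBS) cuts genomic DNA with MspI at CCGG, keeps short fragments and reads methylated cytosines after bisulfite conversion, so it samples CpG-rich sequence. The members were chosen by their labels and not by any value: 2 of the 8 libraries, 1 per group. All animals were male wild-type C57BL/6J mice, and DNA came from cortex and outer medulla. In the group called IR_1week a clamp closed the pedicles of both kidneys for 25 minutes and the kidneys were then reperfused for 1 week, and in sham_IR the operation was done without the clamp. The other groups were used to judge that difference: a second sham operated for ureter obstruction (sham_UUO, 1 library), the same ischemia of 25 minutes with 1 month of reperfusion (IR_1month, 1 library), ligation of the left ureter for 7 days (UUO, 2 libraries) and the same obstruction with 5AZA given at 1 mg/kg/day by intraperitoneal injection (UUO_5AZA, 2 libraries). The labels give no ages, no time of sampling for sham_IR and not whether a library holds 1 animal. The deposited data of sham_IR are named with the tag 1m, which the labels do not explain: if it stands for 1 month, that sham was not matched in time to the 1-week kidney, and time and injury cannot be told apart in any difference from sham_IR. RRBS measures no expression, so the tissue was not checked by marker genes. Whole tissue was used, so a change within a cell type and a change in the mix of cell types cannot be told apart.

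In mammals DNA methylation sits mostly on cytosines of CpG dinucleotides. It is placed and maintained by DNA methyltransferases (Dnmt1, Dnmt3a, Dnmt3b) and oxidised by TET enzymes (Tet1, Tet2, Tet3), CpG-dense promoters of active genes are usually unmethylated, and most other CpGs are highly methylated. In the kidney, clamping the pedicles injures mainly the proximal tubule of the outer medulla, which is then repaired over days to weeks while inflammatory and interstitial cells enter or multiply.

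Levels are percentages of reads that kept a cytosine at a CpG. Positions with 10 or more reads in both libraries were used, summed over 1000 bp windows with 3 or more positions on the 19 autosomes, and window positions are in build mm9. This left 1153614 positions in 113934 windows, with a median of 285 reads per window at 1 week and 198 in sham_IR (each read counts once per CpG it covers). Whole tables held between 57853745 and 86411736 such reads per library. With 1 library in each group, Fisher's exact test on reads compares the 2 libraries and not the conditions, and the only spread between replicates was borrowed from the UUO and UUO_5AZA pairs (given after the windows). CpGs in a window often lie on the same reads, and copies from PCR were not marked, so its p-values and all intervals cover less than the true error.

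No mm9 annotation was used. RefSeq promoter sequences (GRCm38.p6, from 250 bases before to 50 bases after each start) were instead found in the tables by the spacing of their CpGs, which located 8279 promoters of 7376 genes. The 4 promoters below are shown because their differences were of unlike kinds: in the first 3 the level inside the sequenced fragments was higher at 1 week too, and in the last the difference lay at fragment edges. They are written 5′ to 3′ in the direction of the gene, and capitals mark CpGs measured in both libraries. In mm9 the matches lie at chr13:113442469-113442768 (Ddx4, minus strand), chr11:97361605-97361904 (4933428G20Rik, minus strand), chr4:148326382-148326681 (Gm13205, minus strand) and chr4:86257910-86258209 (Haus6, minus strand).
Ddx4: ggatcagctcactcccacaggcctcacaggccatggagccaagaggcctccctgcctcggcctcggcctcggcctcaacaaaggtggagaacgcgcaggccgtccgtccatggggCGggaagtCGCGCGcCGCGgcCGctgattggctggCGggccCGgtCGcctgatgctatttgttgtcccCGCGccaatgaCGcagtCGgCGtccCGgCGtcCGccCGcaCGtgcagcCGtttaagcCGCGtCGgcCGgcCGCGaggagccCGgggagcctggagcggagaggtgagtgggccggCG
4933428G20Rik: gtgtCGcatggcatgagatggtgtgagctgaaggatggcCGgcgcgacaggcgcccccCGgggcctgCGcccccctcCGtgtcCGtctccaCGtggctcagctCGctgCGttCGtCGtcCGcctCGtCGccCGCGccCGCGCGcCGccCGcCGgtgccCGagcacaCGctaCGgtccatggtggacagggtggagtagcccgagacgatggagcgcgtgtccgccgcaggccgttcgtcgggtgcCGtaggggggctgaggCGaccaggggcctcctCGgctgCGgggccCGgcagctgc
Gm13205: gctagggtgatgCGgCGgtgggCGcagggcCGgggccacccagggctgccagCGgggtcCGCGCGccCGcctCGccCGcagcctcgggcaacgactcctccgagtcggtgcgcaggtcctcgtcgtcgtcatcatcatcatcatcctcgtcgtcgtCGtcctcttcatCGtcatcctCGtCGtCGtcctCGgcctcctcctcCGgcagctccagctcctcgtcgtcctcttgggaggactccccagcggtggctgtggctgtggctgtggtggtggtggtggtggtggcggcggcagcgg
Haus6: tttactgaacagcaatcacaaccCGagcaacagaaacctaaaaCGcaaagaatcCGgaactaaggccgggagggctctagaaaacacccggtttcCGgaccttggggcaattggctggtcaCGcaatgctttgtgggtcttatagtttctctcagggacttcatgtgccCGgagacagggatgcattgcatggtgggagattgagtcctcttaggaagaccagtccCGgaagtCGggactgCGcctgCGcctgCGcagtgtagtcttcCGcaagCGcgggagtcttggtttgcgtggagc
The CCGG cut site, which reads the same on both strands, occurs 5 times in the Ddx4 promoter, 4 times in that of 4933428G20Rik, 2 times in that of Gm13205 and 6 times in that of Haus6. Of all RefSeq promoters of this length 52.8% hold it. Measured CpGs numbered 29 of 38, 30 of 42, 18 of 35 and 13 of 17.

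The average kidney CpG was slightly less methylated at 1 week. The mean level was 47.29% at 1 week and 47.85% in sham_IR, a difference of -0.557 percentage points. All 19 autosomes showed a lower mean at 1 week, by -0.62 to -0.509 points, but these come from the same 2 libraries and are not replicates. The 2 sham libraries differed by more: sham_UUO lay 0.955 points above sham_IR. The UUO pair differed by -0.053 points and the UUO_5AZA pair by 0.467. The shams were operated for different models, so their gap may hold more than the spread between libraries of one kind. In size the difference at 1 week was below that gap and above those of the UUO and UUO_5AZA pairs. The difference at 1 week depended on how positions were weighted, since pooling all reads gave 0.06 points in the other direction.

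The lower level was spread over all kinds of windows. Windows were classed by their level in sham_UUO, which is not part of the difference. The mean difference was -0.361 points below a level of 10%, -0.645 points between 30% and 70%, -0.892 points between 70% and 90% and -0.679 points at 90% or more. By CpG content it went from -0.808 points in windows with 3 to 5 positions to -0.331 points in windows with 20 or more, whose mean level in sham_IR was 17.9%. Positions at fragment edges, where end repair with methylated dCTP can fill in bases, made up 38.4% of positions as located from jumps in read depth, and without them the CpG-densest class was at -0.18 points.

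**Figure D1:**
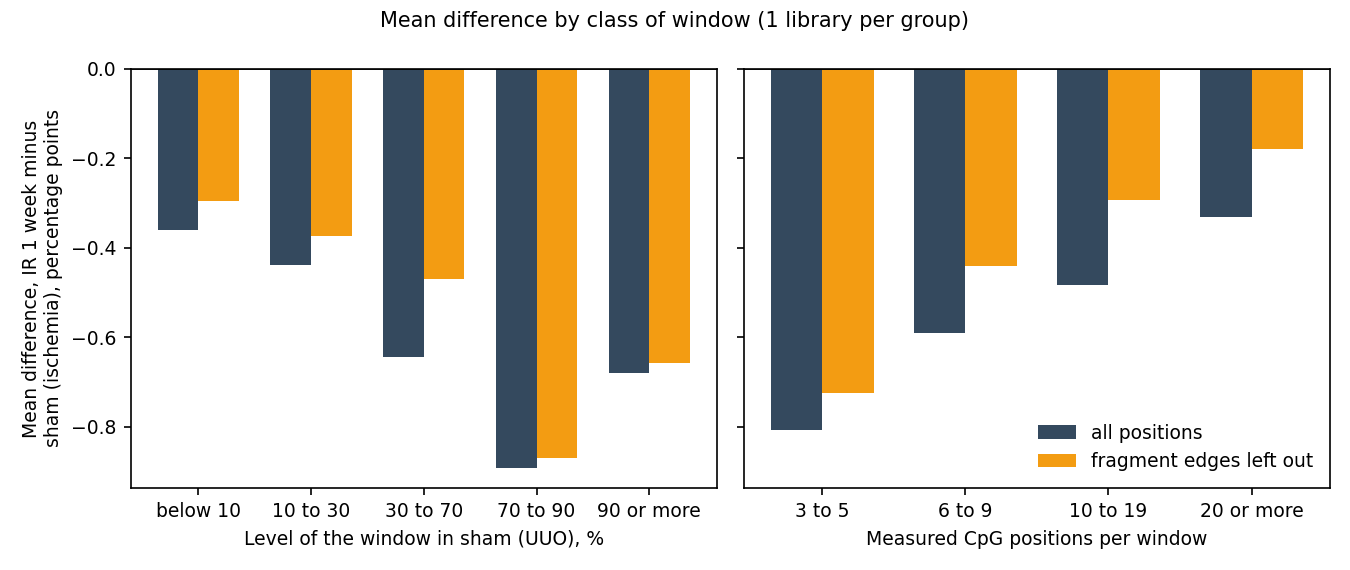
Mean window difference between the 1-week library and sham_IR (vertical axis, percentage points) by the window's level in sham_UUO (left) and by its number of measured CpG positions (right), with all positions and with fragment-edge positions left out. All bars lie below 0, from -0.892 to -0.18 points; there is 1 library per group, so the bars carry no error.

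Few regions changed by a large amount. Of 113934 windows, 45 differed by 25 points or more with an adjusted p below 0.01 (two-sided Fisher's exact test, Benjamini-Hochberg), which is 0.0395%: 17 were higher at 1 week (0.0149%) and 28 lower (0.0246%). The same rule called 71 windows between both shams (0.0661%), 53 higher in sham_UUO (0.0494%) and 18 lower (0.0168%). It called 26 between the UUO libraries (0.0264%), 12 higher in replicate 1 (0.0122%) and 14 lower (0.0142%). It called 62 between the UUO_5AZA libraries (0.0584%), 45 higher in replicate 1 (0.0424%) and 17 lower (0.016%). The number of windows at 1 week thus lay within the range of pairs of like libraries. The 45 windows lay on 15 autosomes and held a median of 4 CpGs, against 5 over all windows. The smallest difference among them was 25.1 points, and the largest among windows that passed only the p-value was 24.1 points.

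**Figure D2:**
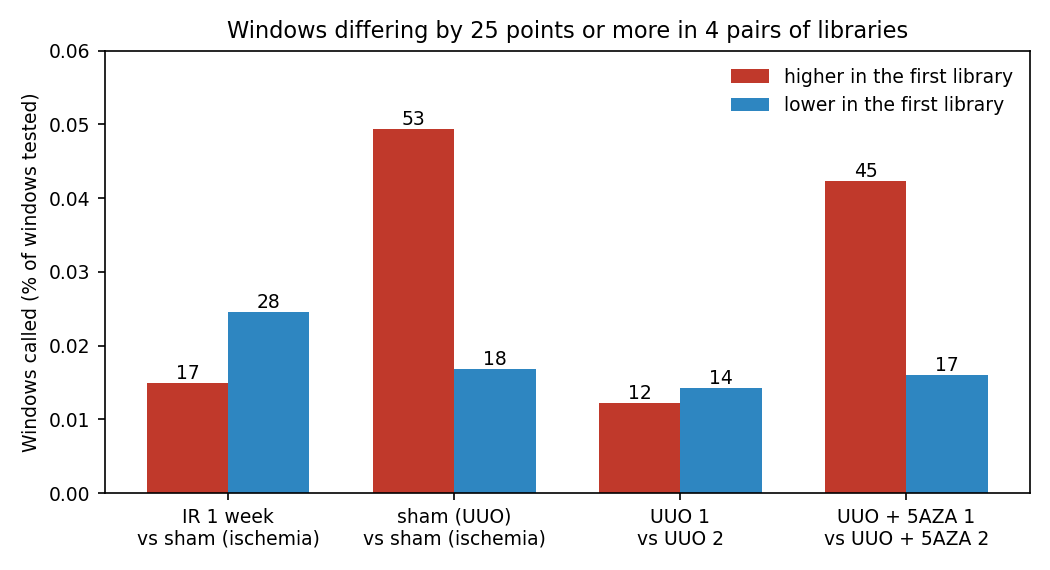
Share of tested windows called in 4 pairs of libraries (bars, %, with the number of windows above each bar), split by whether the first library was higher or lower. The 1-week pair has 17 and 28 calls, between the 26 calls of the UUO pair and the 71 of the shams in total.

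The falls also lay below the second sham, and the rises were split by it. The second sham had no part in choosing the windows, and no minimum of reads was set for it. Its reads were few in some windows, with 9 in the fall at chr1:193101001-193102000 and 10 in that at chr7:66043001-66044000. In all 28 windows that fell, the 1-week library was also below sham_UUO, where 77.3% of all windows lower at 1 week were, and in 26 (92.9%) by 10 points or more, against 5.46%. Of the 17 that rose, 13 (76.5%) lay above sham_UUO, where 44.7% of all windows higher at 1 week did, and 9 (52.9%) by 10 points or more, against 1.9%. The 1-week library enters both differences, so an extreme value there moves both. The 28 and 17 windows were also chosen for a large difference, while the shares over all windows include differences of any size. The shares set against each other are thus not of windows with differences of like size, and no such share was counted. When the count was repeated with sham_UUO in place of sham_IR, 60 windows were called, and 8 of them were among the 45. With the reads of both shams summed 31 were called, 19 of them among the 45.

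In the falls sham_UUO was higher than the injured kidneys outside the comparison. The levels of sham_IR and the 1-week library chose these windows and are given as a description. The median level over the 28 windows was 57.6% at 1 week, 88.8% in sham_IR and 82.0% in sham_UUO. It was 68.7% at 1 month, 68.1% and 71.7% in the UUO libraries and 73.2% and 71.8% in the UUO_5AZA libraries. Among the 6 libraries that chose no window, sham_UUO thus had the highest median. Neither IR_1month nor sham_UUO chose these windows, and 1 month was below sham_UUO in 22 of 28 (78.6%, against 59.9% of all windows that were lower at 1 week). The mean difference was -10.001 points, against -0.865 points over all windows. UUO replicate 1 was lower than sham_UUO in 22 of 28 and UUO replicate 2 in 24 of 28. Over all windows, whatever their direction at 1 week, they were lower in 42.4% and 40.9%. These 2 shares are thus not of the same windows as the 59.9%. All 3 of these libraries were below sham_UUO in 16 of 28 windows (57.1%, against 21.9%). They share the single sham_UUO library, so 1 high value there moves all 3, and no test was made.

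In the rises, sham_UUO was as high as the injured kidneys. The median over the 17 windows was 79.9% at 1 week and 46.1% in sham_IR, but 77.9% in sham_UUO, 64.4% at 1 month and 69.6% and 71.7% in the UUO libraries. The mean of sham_UUO minus sham_IR was 23.5 points in these windows. At 1 month 9 of 17 were above sham_UUO (52.9%, against 38.6% of all windows higher at 1 week), with a mean difference of -1.27 points.

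**Figure D3:**
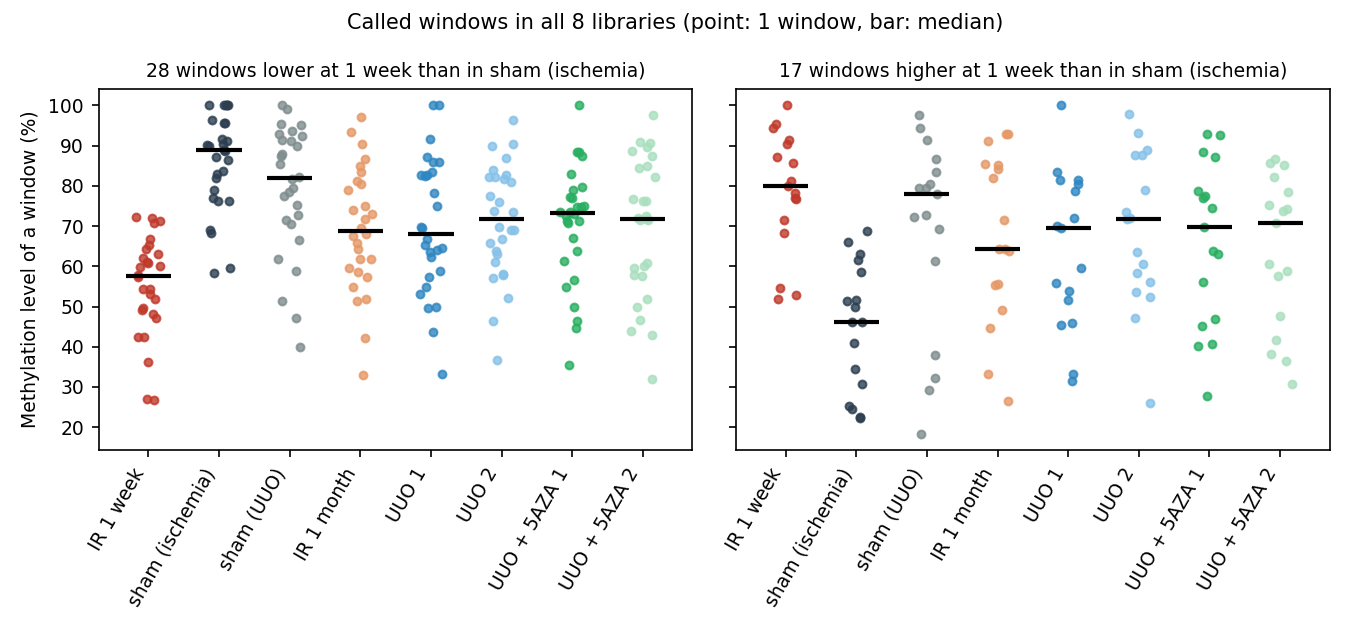
Methylation level (vertical axis, %) of the 28 windows that were lower (left) and the 17 that were higher (right) at 1 week, in each of the 8 libraries; a point is 1 window and a bar the median. The 1-week library and sham_IR chose the windows; among the other 6, sham_UUO has the highest median on the left (82.0%) and on the right (77.9%).

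Named windows are the largest falls and rises past the second sham. The 1-week library and both shams entered this choice. How often both shams lie outside the other libraries over all windows was not counted. Genes are given as the nearest matched promoter, and an unmatched gene may lie closer. The fall with the most reads and the largest number of concordant CpGs was at chr13:120276001-120277000, starting 0.191 kb downstream of the start of 3110070M22Rik, a gene of unknown role. Its level was 26.9% at 1 week, 58.3% in sham_IR, 39.9% in sham_UUO, 33.0% at 1 month, 33.3% and 36.6% in the UUO libraries and 35.5% and 32.04% in the UUO_5AZA libraries. The 1-week library was the lowest and sham_IR the highest, and sham_IR lay farther from the other 6 than the 1-week library did. All 13 CpGs were lower, from 1404 reads at 1 week and 549 in sham_IR. In a run of 7 CpGs (the fourth to the tenth measured) the level was between 2.5% and 4.2% at 1 week and between 33.3% and 38.5% in sham_IR, while the third and the eleventh CpG, next to the run, were at 65.2% or more in both libraries. Set against sham_UUO in place of sham_IR, the window's difference was -13.0 points.

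A window at chr15:79255001-79256000, 0.912 kb upstream of the predicted gene Gm16059, was lowest in the 1-week library. It was 49.2% at 1 week, 95.7% in sham_IR and 99.04% in sham_UUO, a fall of 46.5 points against sham_IR (adjusted p = 1.2e-19, Fisher's exact test between the libraries). At 1 month it was 68.0%, in the UUO libraries 82.8% and 87.0%, and in the UUO_5AZA libraries 74.8% and 72.0%. The shams did not overlap with any of the injured kidneys. A run of 3 neighbouring CpGs carried the fall, at 46.4%, 39.3% and 28.6% at 1 week against 95.7% or more in sham_IR. The last CpG of the window was 91.7% and 95.5%. Edge positions made up 4 of its 6 CpGs, among them 2 of these 3, and with edges left out the window had too few positions for a value.

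Near Smad3, which carries transforming growth factor beta signals to the nucleus, a window 13.8 kb downstream of the start (chr9:63591001-63592000) was 57.4% at 1 week, 88.7% in sham_IR and 91.4% in sham_UUO. The other injured kidneys lay lower than both shams, at 75% at 1 month, 58.8% and 82.2% in UUO and 71.2% and 72.4% in UUO_5AZA. Fewer than 3 of the window's 6 CpGs had 10 or more reads in all 8 libraries, so some of these levels rest on few reads. Its 5 falling CpGs lay at fragment interiors, and the third was at 43.4% against 95.8%. Near Syngr1, a synaptic vesicle protein gene, a window 29.8 kb upstream (chr15:79891001-79892000) had the same order: 59.95% at 1 week, 91.5% and 91.2% in the shams, 65.9% at 1 month and 64.2% and 63.8% in UUO. Here the fall came from 2 adjacent CpGs of 4, at 47.1% and 48.9% against 91.1% and 89.3%, and all 4 were edge positions, so that it too had no value without them.

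A window 5.06 kb downstream of the start of Vim, the intermediate filament gene of mesenchymal cells (chr2:13501001-13502000), was lowest in the 1-week library by a wide gap. It was 26.98% there, 59.5% in sham_IR, 47.3% in sham_UUO, 59.6% at 1 month, 64.6% and 61.1% in UUO and 54.8% and 57.6% in UUO_5AZA. The lowest of the other 7 was thus 47.3%. All 5 CpGs were lower at 1 week, and 3 neighbouring ones fell to between 7.14% and 14.3%; 4 of the 5 were edge positions and the window had 126 reads at 1 week.

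A window 8.52 kb upstream of Hmga1, a gene for an architectural chromatin protein (chr17:27684001-27685000), was 36.1% at 1 week, 68.3% in sham_IR and 58.8% in sham_UUO. The injured kidneys were all below both shams, at 42.1% at 1 month, 43.8% and 46.5% in UUO and 46.5% and 44.0% in UUO_5AZA. None of its 5 CpGs was an edge position. The largest fall lay 47.4 kb from Mul1 (chr4:138038001-138039000), at 42.5% against 90.2% in sham_IR. Sham_UUO was at 70.6% there and the 1-month and UUO libraries between 66.7% and 73%, so sham_IR was above them as the 1-week library was below. Set against sham_UUO the difference was -28.1 points and not called (adjusted p = 0.158, Fisher's exact test). Another fall lay 8.55 kb from Gm52380 (47.2% against 82.0%), where 3 of 4 CpGs were edge positions. The remaining falls had no matched promoter within 50 kb. That on chromosome 1 was at 66.7%, with all reads in sham_IR methylated but only 9 reads in sham_UUO. That on chromosome 15 was 57.8% against 90.5%.

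The named rises were of several patterns. The window at chr9:56071001-56072000, with no matched promoter within 50 kb, was 71.6% at 1 week against 34.4% in sham_IR and 18.3% in sham_UUO. It was 26.4% at 1 month, 31.5% and 25.9% in UUO and 27.7% and 36.4% in UUO_5AZA. The 1-week library stood alone, and the other 7 lay between 18.3% and 36.4%. All 10 CpGs were higher, but they were covered by 11 reads each at most at 1 week and by up to 19 in sham_IR, so the window rests on few molecules. The window 32.5 kb upstream of Dmbx1, a homeobox gene (chr4:115645001-115646000), was 54.7% at 1 week, 22.3% in sham_IR, 29.3% in sham_UUO and 49.04% at 1 month, with UUO at 45.8% and 56.1%. Edge positions made up 4 of its 8 CpGs, and without them the difference was 22.5 points and no longer called (adjusted p = 0.273, Fisher's exact test). A window 35.6 kb upstream of Prph, the gene of the intermediate filament peripherin (chr15:98849001-98850000), was 52.0% against 22.6% in sham_IR and 32.4% in sham_UUO. It was 33.3% at 1 month and 53.9% and 52.3% in UUO, and 4 of its 5 CpGs were edge positions.

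The other 6 named rises ranged from 26.6 to 53.4 points. The largest, 32.1 kb upstream of Mmp24, a membrane-bound metalloproteinase gene, was 94.4% at 1 week against 41.0% in sham_IR, but sham_UUO was at 83.3% from only 6 reads. With 5 reads per position in place of 10 this rise was 35.4 points in place of 53.4, and 2 of its 3 CpGs were edge positions. A window 3.44 kb upstream of Dst, a gene for a cytoskeletal linker, was 85.7% against 46.0% in sham_IR and 69.2% in sham_UUO. One 11.3 kb downstream of the start of Fnbp4 was 95.5% against 68.8% and 77.9%. Edge positions made up all 3 CpGs of the Dst window and 3 of the 4 near Fnbp4. Neither window was still called with 5 reads per position or with the reads of both shams summed. The largest rise of all 45, at chr13:52996001-52997000, did not pass the second sham: 81.1% at 1 week, 25.4% in sham_IR and 72.3% in sham_UUO. The next, at chr8:113047001-113048000 and chr5:123820001-123821000, were below sham_UUO at 1 week, with 68.4% against 94.3% and 78.3% against 79.4%. Both falls that did not pass it by 10 points, at chr14:54781001-54782000 and chr7:31274001-31275000, were at 62.1% against 71.4% and 49.7% against 51.3% in sham_UUO.

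With sham_UUO in place of sham_IR, 14 of the 19 named windows had a value and 5 of them were still called: those near Gm16059, Syngr1, Smad3 and Dmbx1 and the rise on chromosome 9.

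**Figure D4:**
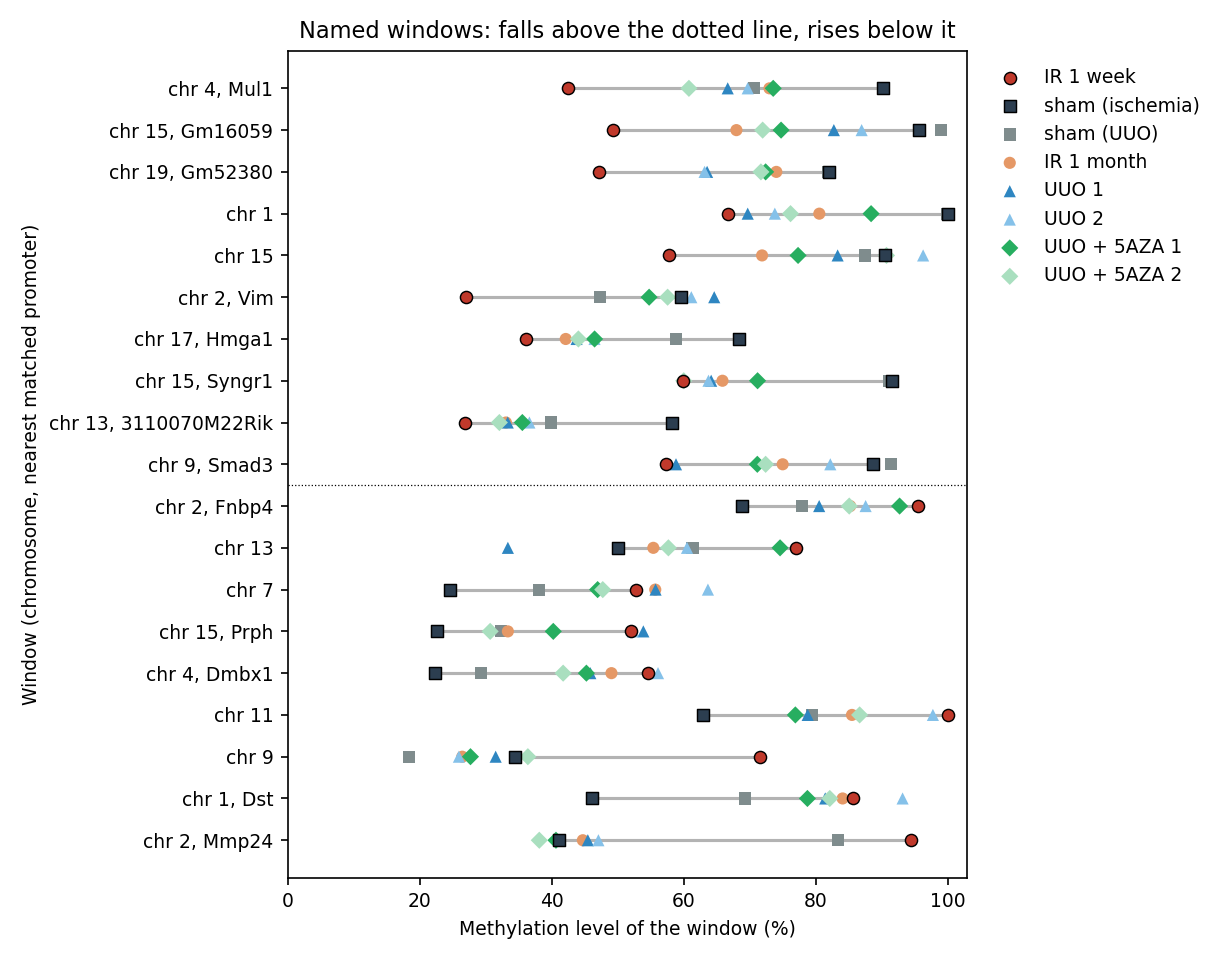
Methylation level (horizontal axis, %) of the 10 named falls and 9 named rises in all 8 libraries; the grey line joins sham_IR and the 1-week library. In the Smad3, Syngr1, Hmga1 and Gm16059 rows both shams lie right of the other libraries, in the Vim row and in the rise on chromosome 9 only the 1-week library stands away from the rest.

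Replicate spread was taken from the UUO and UUO_5AZA pairs, the only groups with 2 libraries, in a quasi-binomial model over the 91942 windows covered in all 8 libraries. The single libraries were assumed to vary like those pairs. With a difference of 10 points or more and an adjusted p below 0.05, 1 window passed (0.00109%), the one next to 3110070M22Rik, with -31.4 points (SE 3.13, adjusted p = 0.0438). At an unadjusted p below 0.05 there were 3721 windows. Without either UUO library it was again 1 window, and without UUO_5AZA replicate 1 or UUO_5AZA replicate 2 it was 13. In limma on log2 ratios of methylated to unmethylated reads none passed, with 5116 at an unadjusted p below 0.05.

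Single CpGs gave few calls, mostly falls. Of 1153614 positions 28 were called by the rule used for windows (0.00243%), 3 higher (0.00026%) and 25 lower (0.00217%), and 10 of them lay in 5 of the 45 windows. Among 27 with 10 or more reads in sham_UUO, 24 lay past it by 10 points or more, 22 falls and 2 rises. The share of all positions that did so was not counted. The called positions were chosen for a large difference from sham_IR, and the library set against sham_IR also enters the difference from sham_UUO. Lying past sham_UUO was thus favoured by the choice. Edge positions made up 15 of the 28, and with edges left out 12 positions were called, all lower.

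Promoters differed little. Among 7877 matched promoters of 7105 genes the mean level was 15.3% at 1 week, 15.7% in sham_IR and 16.8% in sham_UUO. Without fragment-edge positions the mean over 7490 promoters was 8.118% at 1 week and 8.335% in sham_IR. Fisher's exact test called 17 at an adjusted p below 0.01 with no minimum difference (0.216%), 8 higher (0.102%) and 9 lower (0.114%). The same rule called 113 promoters between the shams (1.45%), 62 between the UUO libraries (0.799%) and 68 between the UUO_5AZA libraries (0.87%), so the comparison at 1 week gave the fewest. The quasi-binomial model called none of 7651, and its smallest adjusted p was 1.0, with 171 below 0.05 unadjusted. Of the 17, the 1-week library was on the same side of sham_UUO in 11, 7 of the 8 rises and 4 of the 9 falls. The shares of all promoters on the same side were not counted. The mean of sham_UUO lay above both compared libraries, so such shares need not be equal for rises and falls.

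Ddx4, a germ-cell RNA helicase gene, has a methylated promoter in these kidneys. Its level (sequence above) was 77.0% at 1 week, 68.2% in sham_IR, 68.1% in sham_UUO, 76.7% at 1 month, 77.4% and 74.8% in UUO and 75.9% and 79.6% in UUO_5AZA. Both shams were the lowest and did not overlap with the 6 other libraries. A sham_IR level below the 1-week library was part of the call, and the share of all promoters with such an order was not counted. The difference at 1 week was 8.79 points (adjusted p = 0.00833, Fisher's exact test between the libraries), and inside the fragments the level was 75.2% against 65.03% and 65.3% in the shams (adjusted p = 0.0169 against sham_IR, short of the threshold). At the promoter of 4933428G20Rik, a noncoding RIKEN transcript, the level was 44.2% at 1 week, 35.1% in sham_IR and 30.4% in sham_UUO. It was 44.95% at 1 month, 55.8% and 54.1% in UUO and 37.0% and 41.0% in UUO_5AZA, so that again both shams were lowest. Of its 30 measured CpGs 23 were higher at 1 week, and inside the fragments the adjusted p was 0.0118, short of the threshold.

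The predicted gene Gm13205 had 56.4% at 1 week, 43.5% in sham_IR and 47.9% in sham_UUO, with 47.9% at 1 month, 58.0% and 57.9% in UUO and 48.2% and 48.3% in UUO_5AZA. Here 1 month was at the level of sham_UUO, and UUO was as high as 1 week. It was called inside the fragments too, at 54.0% against 38.3% (adjusted p = 0.000536). Papolb, a poly(A) polymerase gene of the testis, was 53.8% at 1 week and 43.6% in sham_IR, but 52.3% in sham_UUO and between 42.3% and 48.8% in the others. Inside the fragments it was 40.4% against 24.3% and was called (adjusted p = 0.00626), with 36.9% in sham_UUO.

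None of the 9 falling promoters passed the test inside the fragments, where their smallest adjusted p was 0.055, for Sirt1. Over all promoters with edge positions left out, the same rule called 15 of 7490, 6 higher and 9 lower. The 9 lower ones were thus other promoters than these 9. Haus6, a gene for a subunit of the augmin complex of the mitotic spindle, was 15.6% at 1 week and 29.0% in sham_IR, but 12.1% in sham_UUO. Without edge positions it was 0.759%, 0.441% and 0.94%. Gm49208 was 12.6% and 31.4% but 7.52% in sham_UUO, and 2.27% and 0.0% inside the fragments. Sirt1, an NAD-dependent deacetylase gene, was 22.4% at 1 week, 30.5% in sham_IR and 21.8% in sham_UUO. The order was the same for Bmp8b, a bone morphogenetic protein gene, at 22.0%, 29.4% and 20.8%. Over all measured CpGs of these 4 promoters the 1-week library lay between the shams, below sham_IR and above sham_UUO. They were thus not lower at 1 week than in sham_UUO.

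**Figure D5:**
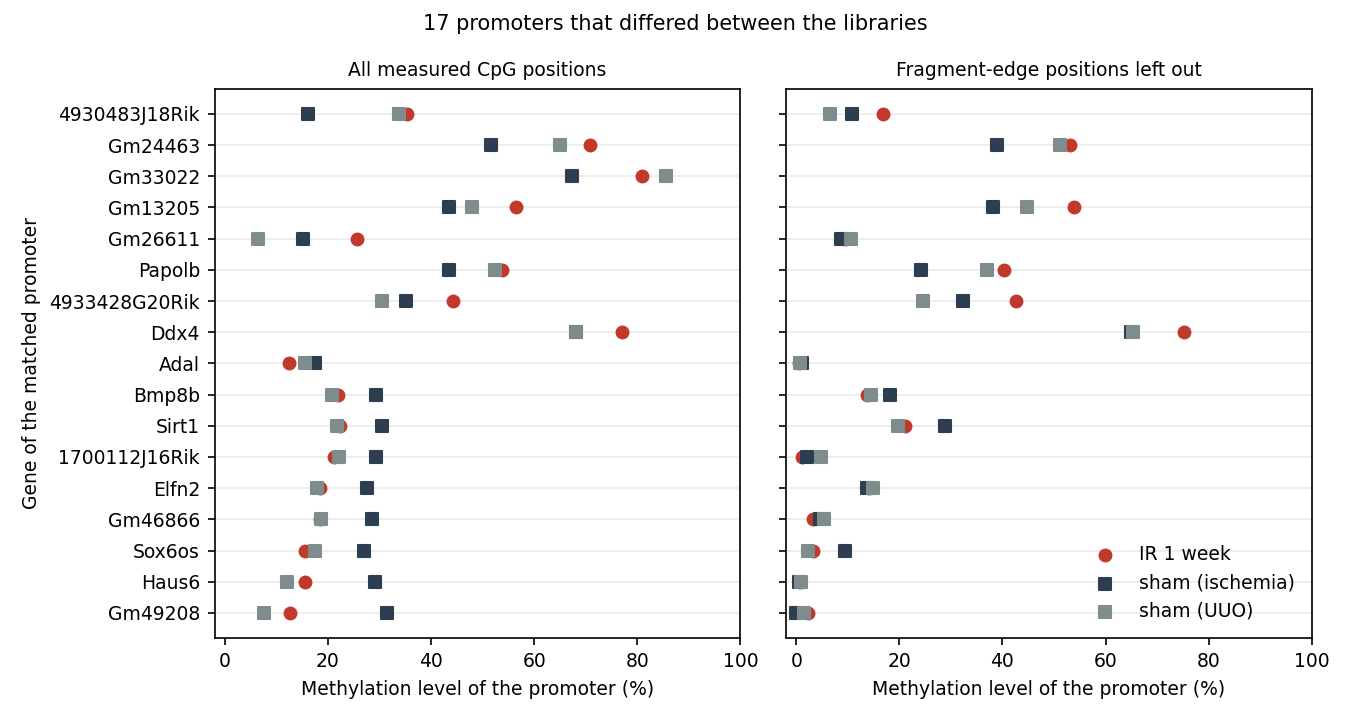
Methylation level (horizontal axis, %) of the 17 called promoters at 1 week and in both shams, over all measured CpGs (left) and without fragment-edge positions (right; Gm33022 has too few positions left). The spread between libraries shrinks on the right for Haus6, Gm49208 and Adal, which are near 0, and remains for Ddx4, 4933428G20Rik and Gm13205.

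Of 45 genes listed for kidney injury, nephron segments, matrix, immune cells, endothelium and DNA methylation, 10 had matched promoters (12 promoters), and 0 of the 12 were called, where 0.216% of all promoters were. At an unadjusted p below 0.05 there was 1 of the 12, the third promoter of Dnmt3a, beside 526 of 7877 over all promoters. All 6 methylation enzymes were measured. Dnmt1 was 15.7% at 1 week and 16.6% in sham_IR, Dnmt3b 10.3% and 13.01%, Tet1 22.5% and 22.0%, Tet2 9.79% and 10.9% and Tet3 15.3% and 16.6%. The first promoter of Dnmt3a was 8.32% and 8.53%, and the second 11.03% and 10.6%. The third promoter of Dnmt3a (chr12:3891494-3891793) was 30.0% against 43.7% in sham_IR, with 30.1% in sham_UUO (adjusted p = 0.0678, Fisher's exact test). Among the injury and segment genes Krt18, a keratin of injured tubules, was 19.8% and 21.1%, and Lrp2, the megalin gene of the proximal tubule, 17.2% and 14.7%. Kdr, an endothelial receptor gene, was 17.4% and 18.7%, and Tgfb1 was 14.2% and 14.4%. These levels include fragment-edge positions, of which Kdr had none. Without them Krt18 was 1.36% and 1.13%, Lrp2 2.53% and 1.51% and Tgfb1 0.0% and 0.0%. Dnmt3b was then 0.273% and 0.712%, Tet2 0.392% and 0.271% and Tet3 0.178% and 0.23%. Dnmt1 was 5.55% and 7.25%, and Tet1 21.3% and 18.5%. The median difference over all promoters was -0.368 points.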

How the data were processed

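RRBS libraries of 8 mouse kidney samples were used as tables per library. Per the submitters' processing notes reads were aligned with Bowtie to mm9; no other step is named there. Each deposited table gives, per CpG position, the count of reads, the methylated fraction and the count of methylated reads, with no header; in all libraries the fraction equals the ratio of both counts within 0.0005, and levels were recomputed from the counts. Groups came from the labels. The libraries compared are 1 per group, and nothing in the labels says that libraries of a pair are separate animals, so the pairs' spread may be technical.

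Windows of 1000 bp with 3 or more positions of 10 or more reads in both libraries were tested with a two-sided Fisher's exact test (numba 0.67.0, adjusted by Benjamini-Hochberg), calling an adjusted p below 0.01 and 25 points or more. A quasi-binomial model used limma 3.58.1 in R 4.3.3 to moderate the dispersion, with 10 points and an adjusted p below 0.05. Both were tested on simulated data. A position counted as a fragment edge where depth, summed over the 8 libraries, changed by more than 10% towards a CpG within 250 bp that had 40 or more reads in all, or where no such CpG existed. Named windows are the 10 largest rises and falls that lie 10 points or more past sham_UUO, fewer where the list is shorter.

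Gene names were to be given only with an mm9 annotation, and none was used. They come instead from a match added after the data had been seen: the CpG spacing of 32851 RefSeq promoter sequences (GRCm38.p6) was looked for in the tables, without their coordinates and with no conversion between builds. Matches of 8 or more CpGs fell on the chromosome RefSeq gives in 98.0% of 8484 cases (80.3% at exactly 8), and only unique matches on that chromosome were kept. A few wrong names may remain. The minimum of 8 (9 was tried first), the promoter call rule and the counts in libraries beyond IR_1month were set with values in view. Members, lists and rules were chosen with earlier results of these data known. Alternatives covered read minimums, depth, edges, window size, thresholds, controls and tests.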

Additional observations from a re-analysis of the deposited data

Results flagged for a closer look

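In 2 named windows the 1-month library, set against the same sham_IR, lay on the other side of it from the 1-week library. At chr9:56071001-56072000 the difference was 37.2 points at 1 week and -7.98 points at 1 month. At chr2:13501001-13502000, downstream of the start of Vim, it was -32.5 points at 1 week and 0.099 points at 1 month, a value near 0. Set directly against each other with the spread of the UUO and UUO_5AZA pairs, 1 week minus 1 month was 45.1 points (SE 6.73, adjusted p = 0.459) at the first and -32.6 points (SE 5.43, adjusted p = 0.568) at the second, in the quasi-binomial model adjusted over 91942 windows with limma. The unadjusted p-values of this model were 7.92e-05 and 0.000173, and neither difference passed the adjustment. This test was added after the values had been seen.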

How the results depend on the processing

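No paired analysis was possible because the groups compared hold 1 library each. The mean difference of -0.557 points became 0.06 points with reads pooled over positions, which turns its direction, and -0.038 points when positions were not required to be shared. It became -1.527 points against sham_UUO, -0.462 without edge positions, -0.531 with 20 reads per position and -0.527 with 10 reads in all 8 libraries.

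The 45 called windows became 20 with 5 positions per window, 288, 159 and 4 with minimum differences of 10, 15 and 40 points, 1 in the quasi-binomial model and 0 in limma; under the other 11 alternatives they numbered 30 to 60. The 35 past the second sham became 23 without edge positions. The 28 positions became 12 without edges. The quasi-binomial count of 1 became 2 with no minimum difference, and 1 to 13 when a UUO or UUO_5AZA library was left out. The 17 promoters became 9 at 20 reads per position and 0 in the quasi-binomial model.

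Class differences kept their sign. Without edge positions they were -0.296, -0.373 and -0.469 points for levels below 10%, 10% to 30% and 30% to 70%, and -0.724, -0.44, -0.293 and -0.18 points for 3 to 5, 6 to 9, 10 to 19 and 20 or more positions. Classed by IR_1month, levels of 10% to 30% and 30% to 70% gave -0.398 and -0.76 points. At 20 reads the same levels gave -0.37 and -0.557 points, and 10 to 19 and 20 or more positions gave -0.354 and -0.284 points. Over 10 alternatives the 19 named windows gave 154 of 190 possible values, 129 still called, 25 not and 0 in the other direction; the other 36 had too few positions or reads. Values were missing for 10 windows at 5 positions per window, 8 without edges, 7 with 10 reads in all 8 libraries, 6 at 20 reads and 5 against sham_UUO, where 9 more lost the call. The cause of these changes was not tested. Depth limits windows such as that on chromosome 9, with 109 reads at 1 week.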
